A study of Mus musculus with 22 samples.

Results

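The genes described here are 9 members of the oncofetal class, genes that are active in the embryo, largely silent in adult organs and active again in many tumours. They are the RNA-binding protein genes Igf2bp1, Igf2bp2, Igf2bp3, Lin28a and Lin28b, the chromatin protein genes Hmga1 and Hmga2, and the transcription factor genes Sox4 and Sox11. They were taken from the count table by gene symbol, and 9 of its 21450 symbols, or 12 of its 30146 probes, belong to them. Igf2bp2 has 2 probes, Hmga2 has 3, and each of the other genes has 1.

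Whole pancreas of C57Bl/6 mice was profiled by TempO-Seq, a sequencing assay that counts ligated oligonucleotide pairs, each ligated only where both lie side by side on their target RNA. The labels name 4 dams, 4 female pups and 4 male pups under TCDD, and 4 dams, 3 female pups and 3 male pups under control. TCDD is a long-lived dioxin and an agonist of the aryl hydrocarbon receptor. Dams received it at a dose given as 20 ng/kg per day, in 2 subcutaneous injections per week, with corn oil for the controls. Dosing ran from before mating until birth, so pups were exposed through the dam. All tissue was taken on the day of birth, with 1 pup of each sex from a litter, and each library is 1 animal.

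Stage labels and stage genes did not go together, so the genes are described over a pair of library classes. A library was put in the newborn type where its count of Afp, the fetal plasma protein alpha-fetoprotein, exceeded that of Pnlip, the pancreatic lipase of the mature acinar cell, and otherwise in the adult type. The adult type holds 8 libraries, 6 labelled TCDD and 2 labelled control, and the newborn type 14, 6 labelled TCDD and 8 labelled control. The stage label goes against the class in 8 libraries: 4 labelled as pups are of the adult type and 4 labelled as dams of the newborn type. Nearest to the dividing line, the adult-type library of TCDD dam 11 had 1.25 CPM of Afp (CPM are counts scaled to the library's total) and 44888 CPM of Pnlip. On the other side, the newborn-type library of TCDD female pup 10 had 760 CPM of Afp and 91.6 CPM of Pnlip. The classes were selected on measured values, and the members were chosen by their difference between those classes, so that difference is given as a description with no test.

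LIN28A and LIN28B bind precursors of the let-7 microRNAs and block their maturation, and mature let-7 in turn represses the mRNAs of LIN28, HMGA2 and the IGF2BP proteins. IGF2BP proteins bind mRNAs, Igf2 among them, and alter their stability, transport and translation. HMGA proteins bend AT-rich DNA, and SOX4 and SOX11 are SoxC transcription factors of progenitor cells, with SOX4 needed for endocrine cell formation in the mouse pancreas.

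The let-7 sequences are shown because 7 of the 9 members carry a match to them. In RefSeq (GRCm38.p6), 11 of the 12 annotated let-7 loci give mature forms with 1 shared seed, bases 2 to 8, in capitals in these examples from let-7a and let-7g and, at chr3:140028281-140028304 on the plus strand, from let-7j, which has another seed.
mmu-let-7a-5p: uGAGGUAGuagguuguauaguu
mmu-let-7g-5p: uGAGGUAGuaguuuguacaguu
mmu-let-7j: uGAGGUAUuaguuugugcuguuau
The match to the shared seed, CTACCTC on the transcript strand, was searched in the longest annotated 3′ UTR of each gene (GENCODE M21, GRCm38). It occurred 4 times in Hmga2, Igf2bp1 and Lin28b, 2 times in Lin28a, and 1 time in Igf2bp2, Igf2bp3 and Hmga1. Among 20996 genes with a 3′ UTR, 8.95% held at least 1 match and 0.152% at least 3. Of the 5336 genes with a 3′ UTR of at least 2000 bases, 19.9% held at least 1 match and 0.581% at least 3. Sox4, with a 3′ UTR of 2780 bases, and Sox11, with 6957 bases, held none. A match describes letters in the transcript and is not a measured site, and mature microRNAs were not measured.
The match most upstream in each of the 3′ UTRs of Igf2bp2, Hmga2, Igf2bp3, Lin28b and Hmga1, and the second of Igf2bp1, is given with its surroundings, the match in capitals. They lie at chr16:22059466-22059495, chr10:120364217-120364246, chr6:49086780-49086809, chr10:45381015-45381044, chr17:27563277-27563306 and chr11:95959350-95959379, all on the minus strand except that of Hmga1 on the plus strand.
Igf2bp2: acacacaaataaaagCTACCTCaggtgttt
Hmga2: gccgacattcaatttCTACCTCagcatcag
Igf2bp3: tgcatttttactcaaCTACCTCaggtattc
Lin28b: acccgggcgggaagtCTACCTCatgcaagc
Hmga1: tcctctgttcacaaaCTACCTCtggacggt
Igf2bp1: cagcagtgctattaaCTACCTCagccccag
An adenine follows the match in each of these except that of Hmga1. Among matches not printed, those of Hmga2 and Lin28b lack it, those of Lin28a have it, and those of Igf2bp1 include both kinds.

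**Figure D1:**
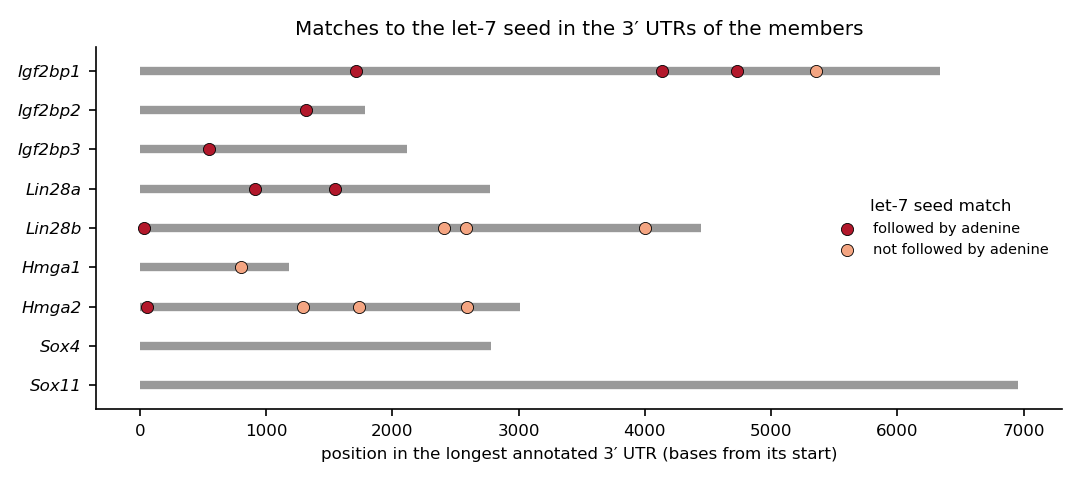
Position of each match to the shared let-7 seed (points) along the longest annotated 3′ UTR of each member (bars), in bases from the start of the UTR. Dark points mark matches followed by adenine, and Sox4 and Sox11 have no point.

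Igf2bp2 had the largest log2 difference between the classes among the members over all 22 libraries. That order is not fixed: over the 10 control-labelled libraries alone Hmga2 (-5.58) differed more than Igf2bp2 (-4.66), as did Igf2bp1 (-7.45) and Igf2bp3 (-6.60), both at 0 counts in the adult type there. Only 2 adult-type libraries carry that label, and Hmga2 had 1 and 3 counts in them. The gene (chr16:22059009-22163299, GRCm38.p6) encodes IMP2, an mRNA-binding protein studied for its association with type 2 diabetes. In the 8 adult-type libraries its lowest, median and highest levels were 0.0581, 0.42 and 0.979 CPM, and in the 14 newborn-type libraries they were 48.5, 59.6 and 86.6 CPM. The ranges were far apart, and every newborn-type library held at least 649 counts where no adult-type library held more than 16. Over pooled counts, 61 in the adult type and 14162 in the newborn type, the ratio of adult to newborn was 0.00759 (exact 95% interval 0.0058 to 0.00975, counting error only). The leading probe, which gave 93.2% of the newborn-type counts, was lower in the adult type by a log2 difference of -5.17 (edgeR estimate with TMM scaling), and the second probe by -4.82. Within the newborn type Igf2bp2 was the least variable member, with a coefficient of variation of 15.5%.

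Igf2bp1 and Igf2bp3, the paralogs whose products are called IMP1 and IMP3, were detected at far lower counts. Igf2bp1 (chr11:95957163-96005944) had 0, 0 and 0.178 CPM as its lowest, median and highest adult-type levels, against 0.996, 1.8 and 3.68 CPM in the newborn type, with no overlap. Its 6 adult-type counts came 3 each from TCDD dam 11 and TCDD male pup 8, the pair of adult-type libraries with the most probes detected (22786 and 22871, against 17614 to 19072 in the other 6). Igf2bp3 (chr6:49085218-49215469) had a count in 1 of 8 adult-type libraries, again TCDD male pup 8 with 0.116 CPM, and ran from 0 to 1.92 CPM with a median of 0.9 CPM in the newborn type. Its ranges overlapped because 1 newborn-type library, control female pup 2, was at 0. The pooled ratios of adult to newborn were 0.0245 (0.00893 to 0.0537) for Igf2bp1 and 0.0175 (0.00211 to 0.0642) for Igf2bp3.

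Hmga2 (chr10:120361268-120476469), which encodes an architectural DNA-binding protein of growing tissue, followed Igf2bp2. Its lowest, median and highest levels were 0.0651, 0.321 and 0.93 CPM in the adult type and 15.5, 25.9 and 35.8 CPM in the newborn type, with no overlap. The log2 difference of its leading probe was -4.14, and that of its second was -3.93. The remaining Hmga2 probe held 4 counts in all 22 libraries and gives no level of its own.

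Hmga1 (chr17:27556574-27563672), the paralog that is widespread in dividing cells, was the member with the smallest difference among the 6 with usable counts. It had 0.261, 0.496 and 0.832 CPM in the adult type, against 2.95, 3.9 and 6.66 CPM in the newborn type. The ranges did not overlap in CPM of the total, but they did after TMM scaling, with a log2 difference of -1.10. The mouse genome also holds Hmga1b, a near-identical copy on chromosome 11, so the counts of Hmga1 may include its reads.

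Sox4 (chr13:28948919-28953699) had the most adult-type counts of the members, 326 in all, and 11591 counts in the newborn type. Its lowest, median and highest levels were 1.71, 2.32 and 3.65 CPM in the adult type and 30.3, 52.2 and 70.2 CPM in the newborn type. The groups did not overlap, and the log2 difference was -2.46. Counts of different genes are not compared as levels here, since each probe has its own efficiency and TempO-Seq values carry no length scale.

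Lin28a, Lin28b and Sox11 were at or near the limit of detection in both classes. That limit, 3 counts of a library's total, corresponded to 0.0859 to 0.267 CPM and covers counting error only. Lin28a gave 3 counts in the adult type and 8 in the newborn type, and Lin28b gave 4 and 13. All 4 adult-type counts of Lin28b were in TCDD male pup 8. Their pooled ratios of adult to newborn were 0.661 (0.113 to 2.75) and 0.542 (0.129 to 1.75), with wide intervals at this depth that include 1. Sox11 had 3 adult-type counts, all in TCDD male pup 10, and 50 newborn-type counts in 11 of 14 libraries, with a ratio of 0.106 (0.0211 to 0.327). These 3 ratios use total counts, a scale on which the median log2 difference of probes past the low-count filter was -1.55. Their intervals cover counting error only and are no test of a class difference.

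**Figure D2:**
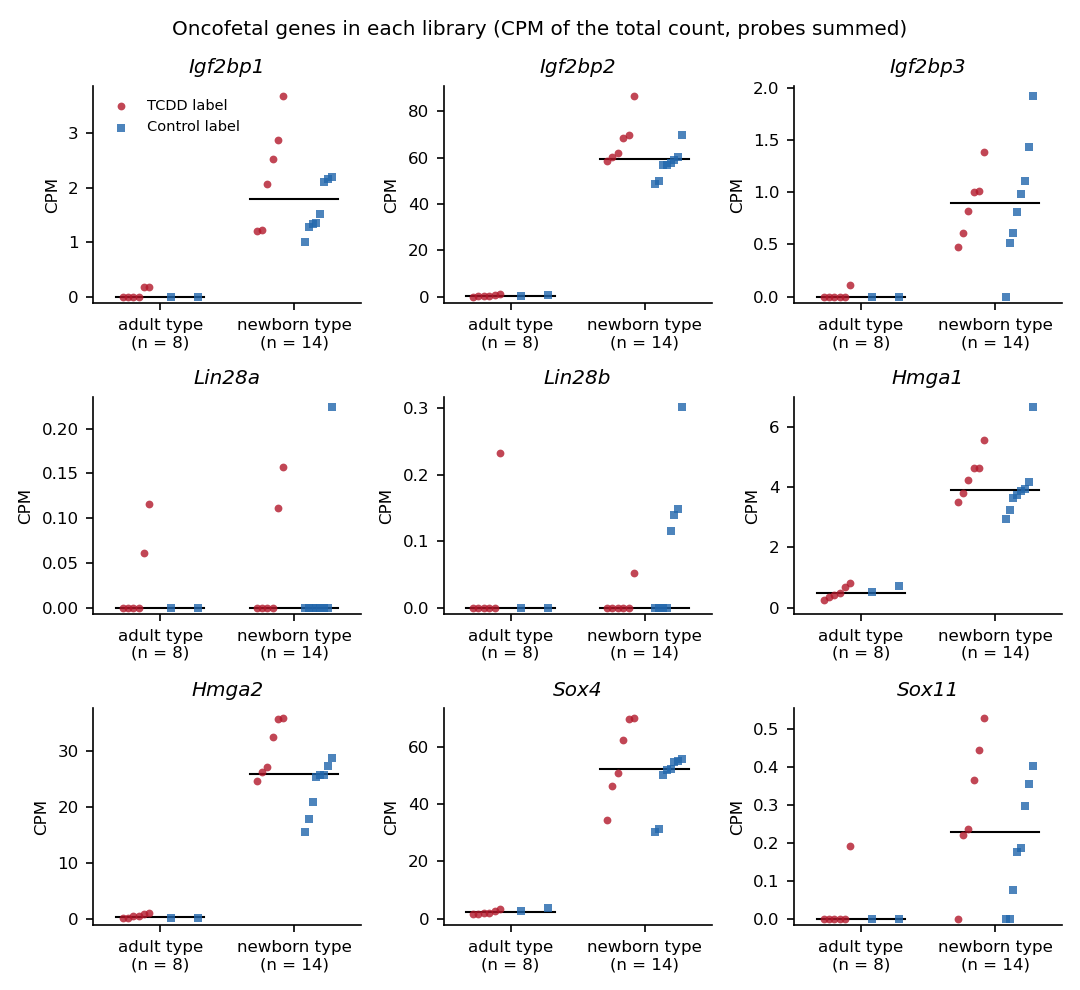
Level of each member in each library, in CPM of the total count with the probes of a gene summed, on a linear axis with its own scale per gene. Points are libraries, circles for the TCDD label and squares for the control label in rising order within each group, and lines are class medians. Igf2bp2, Hmga2 and Sox4 lie between 0.0581 and 3.65 CPM in the adult type and between 15.5 and 86.6 CPM in the newborn type.

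The difference between the classes has to be read against that of all probes. Acinar enzymes took more of the adult-type libraries: the 6 acinar markers summed to 178646 to 190614 CPM there and to 91023 to 117877 CPM in the newborn type, with 3 of 6 higher and 1 lower without overlap. Pnlip, which sets the classes, is among those 3, so its part in the sum was fixed by the rule. It had 40765 to 48925 CPM in the adult type and 22.3 to 91.6 CPM in the newborn type. Cpa1 and Cela1 are the others. In CPM of the total, 68% of 16760 probes past the low-count filter had an adult-type range wholly below the newborn-type range, and the median log2 difference was -1.55. After TMM scaling, which sets the typical probe near 0, the share was 11.5% and the median -0.11. Of the 9 members, 5 did not overlap in CPM of the total and 4 (Igf2bp1, Igf2bp2, Hmga2 and Sox4) after TMM scaling, all lower in the adult type. Nothing is read from that count, since the members were chosen by this contrast. Lin28a, Lin28b, Sox11 and the remaining Hmga2 probe did not pass the filter, so only 8 of the 12 member probes have an estimate. Total-count scaling gave larger differences, -7.04 for Igf2bp2, -6.01 for Hmga2, -5.32 for Igf2bp3, -5.16 for Igf2bp1, -4.36 for Sox4 and -2.96 for Hmga1. The estimates for Igf2bp1 and Igf2bp3 rest on 6 and 2 adult-type counts.

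**Figure D3:**
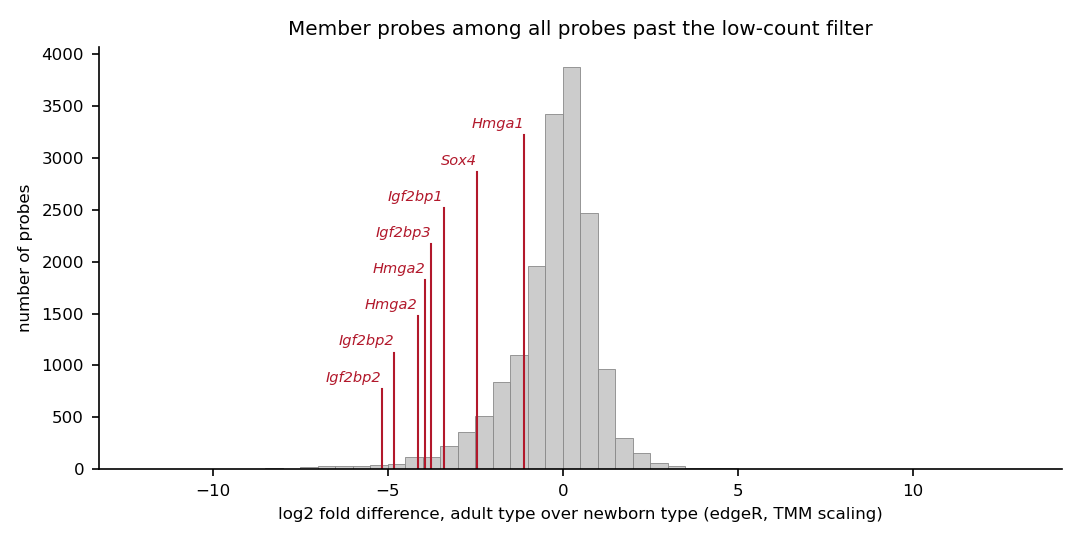
Number of probes by log2 fold difference, adult type over newborn type (edgeR, TMM scaling), for 16760 probes past the low-count filter. Vertical lines mark the 8 member probes that passed it, from -5.17 for the leading probe of Igf2bp2 to -1.10 for Hmga1, and their height carries no value.

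Within a class, levels under the dam label and under the pup label covered overlapping ranges. In the adult type, Igf2bp2 ran from 0.356 to 0.979 CPM in the 4 libraries labelled as dams and from 0.0581 to 0.649 CPM in the 4 labelled as pups. In the newborn type it ran from 48.5 to 86.6 CPM in the 4 libraries labelled as dams and from 50 to 69.8 CPM in the 10 labelled as pups. Sox4 likewise ran from 1.71 to 3.65 CPM in the adult-type libraries labelled as dams and from 1.72 to 3.55 CPM in those labelled as pups. Over the 14 libraries whose stage label goes with the class, 4 adult-type dams and 10 newborn-type pups, the log2 differences were -6.30 for Igf2bp3, -4.50 for Igf2bp2, -4.41 for Hmga2, -3.34 for Igf2bp1, -2.42 for Sox4 and -1.27 for Hmga1. Igf2bp3 had 0 counts in those 4 adult-type libraries, so its estimate depends on the model's prior count and is no bound.

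Markers of several cell types moved with the classes, and in bulk tissue fewer cells of a type and less RNA per cell cannot be told apart. On the scale of CPM of the total, 68% of all probes past the low-count filter were lower in the adult type without overlap. Each count of markers below stands beside that share, and some are at or under it. All 6 mesenchyme markers were lower in the adult type with no overlap in CPM of the total, summing to 35.6 to 95.9 CPM there and to 1293 to 2072 CPM in the newborn type. The same held for all 7 endocrine markers (93.4 to 335 CPM against 1051 to 2155 CPM in the newborn type) and all 5 cell division markers (10.3 to 96.3 CPM against 161 to 492 CPM). Hepatocyte markers, of which Ttr is also an islet gene, summed to 3.2 to 17.3 CPM in the adult type and to 433 to 1285 CPM in the newborn type, with 6 of 6 lower. Afp, which sets the classes, is not on that list but is a fetal hepatocyte gene, so this difference is not independent of the rule. Duct markers summed to 24.5 to 52.2 CPM in the adult type and 370 to 699 CPM in the newborn type (4 of 5 lower), and endothelial markers to 1.37 to 7.73 CPM and 18.5 to 43.9 CPM (4 of 4 lower). Neuron and Schwann cell markers summed to 0.13 to 1.56 CPM in the adult type and 12.6 to 68.7 CPM in the newborn type (4 of 6 lower), and erythroid markers to 1.15 to 13.9 CPM and 38.9 to 77.7 CPM (2 of 5 lower). Leukocyte markers overlapped for 5 of 5, at 2.34 to 59.2 CPM in the adult type and 26.2 to 61.7 CPM in the newborn type. Adipocyte markers overlapped for 3 of 3, at 0 to 22.8 CPM in the adult type and 0 to 0.895 CPM in the newborn type. No marker list was at 0 throughout either class for any of its genes, and the part of cell makeup in the members' difference was not tested. On the TMM scale the median log2 difference was -6.76 for hepatocyte, -3.61 for neuron and Schwann cell and -2.63 for mesenchyme probes. It was -1.79 for endocrine, -1.70 for duct, -1.51 for erythroid, -0.97 for cell division and -0.89 for endothelial probes. Leukocyte probes had a median of 0.08 and acinar probes, Pnlip among them, 2.54. The median over all probes was -0.06 (edgeR estimates, where the -0.11 above is a difference of mean log2 CPM with 0.5 added).

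The proteins that make, modify and degrade let-7 are the partners and opponents of LIN28. Of the 12 measured genes of the let-7 processing list, 9 lay below the newborn type without overlap in CPM of the total, the scale on which 68% of all probes did, and 0 lay above it. On the TMM scale 10 of their 15 probes were below 0, against 8858 of all 16760 probes tested. The median log2 difference of the list was -0.20, beside -0.06 over all probes. Tut4, a uridylyltransferase that LIN28A recruits to pre-let-7, had 11.9 to 23.5 CPM in the adult type and 115 to 198 CPM in the newborn type. Dicer1, which cuts precursors to mature microRNAs, had 1.28 to 3.32 CPM in the adult type and 6.53 to 11.6 CPM in the newborn type. After TMM scaling the log2 differences were -1.36 to -1.52 for the probes of Tut4 and -0.20 for Dicer1.

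Other reported let-7 targets, 20 of which were measured, had 14 genes lower in the adult type without overlap in CPM of the total (against 68% of all probes) and 0 higher. After TMM scaling 21 of their 38 probes were below 0 (against 8858 of all 16760), with a median of -0.24. Nras, a RAS GTPase, had 22.6 to 41.2 CPM in the adult type and 134 to 212 CPM in the newborn type. Cdc34, a ubiquitin-conjugating enzyme, overlapped at 69.3 to 87.8 CPM and 66.3 to 109 CPM, and its probes had log2 differences of 1.77 and 1.84 after TMM scaling. Several of these targets, Myc and Hras among them, turned direction with the scaling. The RAS gene Hras had 22.3 to 31.3 CPM in the adult type and 44.4 to 69.6 CPM in the newborn type, but log2 differences of 0.56 to 0.94 after TMM scaling. Myc, a growth-promoting transcription factor gene, had 21.6 to 36.8 CPM in the adult type and 52.4 to 97.5 CPM in the newborn type, but log2 differences of 0.45 to 0.61 after TMM scaling.

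A further list holds mRNAs bound by IGF2BP proteins and the readers, writers and erasers of the m6A mark, Fto among the erasers. It also holds Elavl1, another RNA-binding protein gene. Of its 19 measured genes, 15 were lower in the adult type in CPM of the total (against 68% of all probes) and 0 were higher. After TMM scaling 16 of their 29 probes were below 0 (against 8858 of all 16760), with a median of -0.13. Igf2, the fetal growth factor gene whose mRNA gave the IGF2BP family its name, stood far from that median. It had 0.0581 to 0.781 CPM in the adult type and 80.2 to 151 CPM in the newborn type, a log2 difference of -7.04. Actb, a classic IMP1-bound mRNA, had 29.9 to 67 CPM in the adult type and 186 to 308 CPM in the newborn type, and its 3 probes differed by -0.73 to -0.92.

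Other high-mobility-group genes were lower in the adult type without overlap in CPM of the total in 7 of 9 (against 68% of all probes), with 0 higher. After TMM scaling 9 of their 10 probes were below 0 (against 8858 of all 16760), with a median of -0.78. Hmgb2, a chromatin protein of dividing cells, had 1.92 to 12.5 CPM in the adult type and 60.2 to 164 CPM in the newborn type, with log2 differences of -2.52 and -2.32 for its probes. Hmgb1, its widespread paralog, had 13.3 to 23.2 CPM in the adult type and 85.2 to 169 CPM in the newborn type, a log2 difference of -1.08. Of 17 other SOX genes, 6 were lower in the adult type in CPM of the total (against 68% of all probes past the low-count filter), 0 were higher and 11 overlapped. Only 8 of these genes had a probe past that filter. Their 11 probes past it were all below 0 after TMM scaling (against 8858 of all 16760), with a median of -0.50. Sox6, a SoxD factor gene, had 6.97 to 19.6 CPM in the adult type and 30.5 to 51.3 CPM in the newborn type. Its probes had log2 differences of only -0.10 to -0.37 after TMM scaling.

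Reported SoxC targets were lower in 5 of 7 in CPM of the total (against 68% of all probes), with 0 higher. After TMM scaling 7 of their 10 probes were below 0 (against 8858 of all 16760), with a median of -1.83. Dcx, a microtubule protein of migrating neurons, had 0.157 to 1.34 CPM in the adult type and 16 to 31.5 CPM in the newborn type, with log2 differences of -2.99 and -3.63 for its probes. Tubb3, a neuronal tubulin that is also in the neuron marker list, had 0 to 0.64 CPM in the adult type and 1.3 to 43.5 CPM in the newborn type. Neurod1, an endocrine transcription factor, had 0.456 to 2.19 CPM in the adult type and 17.6 to 34.9 CPM in the newborn type. Tead2, a Hippo pathway factor, overlapped at 63.6 to 108 CPM and 65.2 to 124 CPM, and its 3 probes were higher in the adult type after TMM scaling, by 1.55 to 1.75.

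The TCDD label was compared within each class, because the classes differ in their share of TCDD labels. The labels are used as given. The stage label went against the stage genes in 8 libraries, and whether the TCDD label of any library is also misplaced was not tested, so every TCDD and control value holds for the label alone. In the newborn type, no member passed the test, and 0% of 17109 probes did (edgeR quasi-likelihood test with Benjamini-Hochberg adjustment). At an unadjusted p under 0.05, edgeR counted 554 probes, and DESeq2 called 0 after adjustment. Igf2bp2 had a lowest, median and highest level of 58.6, 65.3 and 86.6 CPM in the 6 TCDD libraries, against 48.5, 57.4 and 69.6 CPM in the 8 control libraries. These ranges overlapped, and the log2 difference of TCDD over control was 0.09 ± 0.0877 (SE). Hmga2 had 24.6, 29.7 and 35.8 CPM under TCDD and 15.5, 25.4 and 28.7 CPM under control, also overlapping, with a log2 difference of 0.23 ± 0.129 (edgeR adjusted p = 1). Igf2bp1 had 1.21, 2.3 and 3.68 CPM under TCDD and 0.996, 1.43 and 2.19 CPM under control, overlapping, with a log2 difference of 0.34 ± 0.277. Sox4 differed by 0.09 ± 0.151, Hmga1 by -0.02 ± 0.186 and Igf2bp3 by -0.17 ± 0.435, each with an edgeR adjusted p of 1.

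In the adult type, 4 member probes passed the low-count filter and none passed the test. Over all 13513 probes tested edgeR called 0%, with 388 at an unadjusted p under 0.05, and DESeq2 called 0. Only 2 adult-type libraries carry the control label. Sox4 had 1.71, 2.07 and 3.55 CPM as its lowest, median and highest levels under TCDD, and 2.7 and 3.65 CPM under control, overlapping, with a log2 difference of -0.37 ± 0.343. Hmga2 had 0.104, 0.481 and 0.93 CPM under TCDD and 0.0651 and 0.213 CPM under control, a log2 difference of 1.75 ± 1.03. Those Hmga2 control levels are 1 and 3 counts, and the ranges overlapped. Igf2bp2 differed by -0.67 ± 0.916 and Hmga1 by -0.14 ± 0.687.

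The difference of the TCDD difference between the classes was tested in 1 model. It passed for 0% of 19209 probes by edgeR, with 1523 at an unadjusted p under 0.05, and DESeq2 called 24, none of them a member. The member with the smallest p was Hmga2, whose TCDD difference was larger in the adult type by 1.57 ± 0.714 on the log2 scale (edgeR adjusted p = 0.59).

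**Figure D4:**
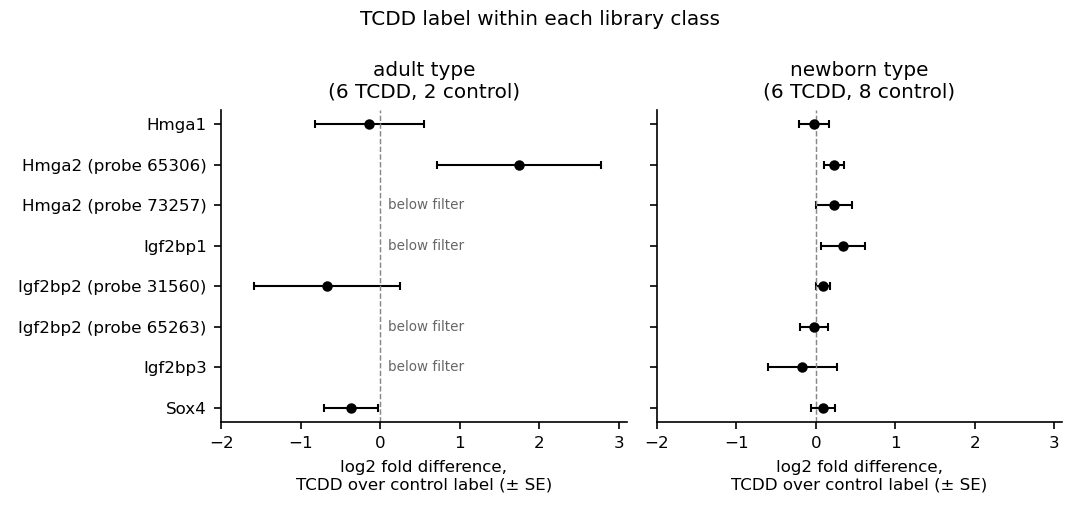
Log2 fold difference of TCDD over control label for each member probe, in the adult type (left) and the newborn type (right). Points are edgeR estimates with TMM scaling and bars are ± SE. In the newborn type the estimates lie between -0.17 and 0.34, and in the adult type, with 2 control libraries, between -0.67 and 1.75.

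Compared as labelled, the TCDD groups mix the classes. In dams each side held 2 libraries of each class, and edgeR called 0% of 15594 probes, with 150 at an unadjusted p under 0.05 and 0 called by DESeq2. In female pups 1 of 4 TCDD libraries was of the adult type and edgeR called 0% of 17513 probes, with 299 at an unadjusted p under 0.05 and 0 called by DESeq2. In male pups 3 of 4 TCDD libraries were of the adult type and all 3 controls of the newborn type. There edgeR called 0% of 16176 probes with 2703 at an unadjusted p under 0.05, while DESeq2 called 476, Sox4 among them. With TCDD male pup 6, the newborn-type library, left out, edgeR called 6451 of 15379 probes. That sets 3 adult-type against 3 newborn-type libraries, the contrast by which the members were chosen, so no member value is given from it. In male pups label and library class cannot be told apart. No gene of the 6 context lists passed the edgeR test in any of these 6 comparisons with the full set of libraries.

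Among the 14 newborn-type libraries, members with a mean of at least 10 counts (Igf2bp1, Igf2bp2, Igf2bp3, Hmga1, Hmga2 and Sox4) were correlated with each other on log2 of TMM-scaled CPM with 0.5 added. Pearson's r was above 0 in 11 of 15 pairs, and 0 pairs passed after adjustment over the 15 (two-sided permutation test), with 2 at an unadjusted p under 0.05. The highest was Igf2bp2 with Igf2bp3, with r = 0.64 (permutation p = 0.0135, adjusted p = 0.203) and Spearman's rho = 0.56 (permutation p = 0.0397, adjusted p = 0.257). Without the 2 libraries farthest from the median of Igf2bp2, r was 0.43. Hmga2 with Sox4 had r = 0.56 (permutation p = 0.0389, adjusted p = 0.292) and rho = 0.42 (permutation p = 0.136, adjusted p = 0.302), and r = 0.43 without the 2 farthest libraries. Over the 10 libraries of this class labelled as pups, Igf2bp2 with Igf2bp3 reached r = 0.87 (permutation p = 0.0007, adjusted p = 0.0105) with rho = 0.73 (permutation p = 0.0199, adjusted p = 0.149), and r = 0.65 without the 2 farthest. The permutations treat libraries as exchangeable, although litter numbers are shared by some of them, and they pool the TCDD and control labels, so these p-values may be too small. Igf2bp1 had r = 0.13 with Igf2bp2 and 0.05 with Igf2bp3. Pearson's r of the members with the log2 library total lay between -0.09 and 0.31.

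**Figure D5:**
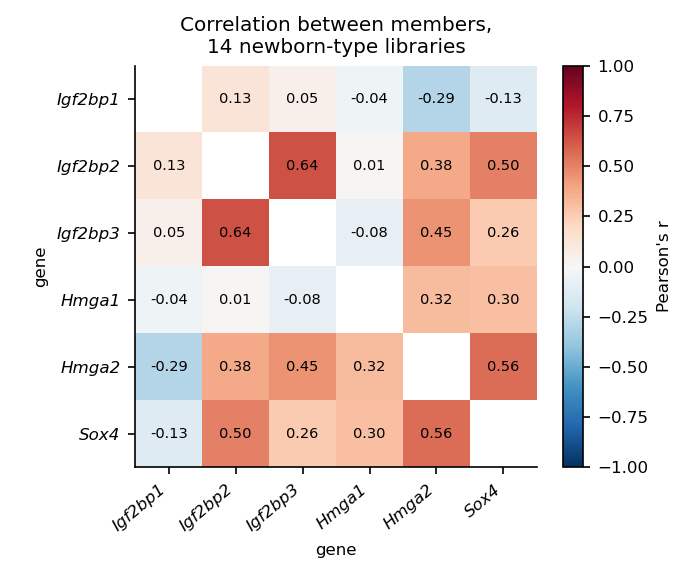
Pearson's r between members over the 14 newborn-type libraries, on log2 of TMM-scaled CPM with 0.5 added. Each cell is 1 pair, and values run from -0.29 for Igf2bp1 with Hmga2 to 0.64 for Igf2bp2 with Igf2bp3.

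Probes of other genes with the most similar pattern over the same 14 libraries were read from 11348 probes averaging 50 or more counts, as a description. For Igf2bp2 they were Rbpms, an RNA-binding protein gene (r = 0.911), Arid3a, a DNA-binding factor gene on the list of reported let-7 targets (r = 0.863), and Tmem115 (r = 0.847). Arid3a had 0.119 to 1.21 CPM in the adult type and 15.8 to 34.5 CPM in the newborn type, a log2 difference of -3.14. Hmga2 ran most closely with Homer3 (r = 0.886), Enc1 (r = 0.884) and Syt15 (r = 0.824), and Sox4 with Smim19 (r = 0.886), Kcnh2 (r = 0.885) and Hmg20b (r = 0.881). Hmga1 ran with Impdh2, which encodes the rate-limiting enzyme of guanine nucleotide synthesis (r = 0.924), Actb (r = 0.865) and Slco2b1 (r = 0.844). For the low-count members the nearest were Zfp395, Qrich1 and Zfp410 for Igf2bp1 (r = 0.777 to 0.788) and Rasd1, Pard6b and Mllt1 for Igf2bp3 (r = 0.782 to 0.822). Each is the top of 11348 values over 14 libraries, and was chosen for its r.

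Promoters differed among the members. Of the 8 with a RefSeq promoter window (300 bases around the transcription start, GRCm38.p6), Hmga1, Igf2bp2, Igf2bp3 and Sox11 had over 55% GC and a ratio of observed to expected CpG over 0.65, as did 28.3% of 27025 such windows. GC content ran from 39% for Lin28b to 76.7% for Igf2bp2, and Hmga2 had 57.7% GC with a CpG ratio of 0.54.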

How the data were processed

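The submitters' processing notes name bcl2fastq 2.17.1.14. Not given in the sources used here are the aligner, the genome build and the probe positions. Raw counts of each probe in 22 libraries were deposited by the authors as 1 table, with totals of 11223816 to 34911410 (median 16205307.5). Every pair of libraries of the same labelled group and class differed by more than sampling noise (chi-square over its degrees of freedom at least 8.09). Pairs across groups or classes were not compared in this way. The replicates are separate animals. Counts are reads, not independent molecules. CPM use the total count, with the probes of a gene summed. Fits used all probes with edgeR 4.0.16 under R 4.3.3 (filterByExpr filter, TMM scaling, quasi-likelihood test, Benjamini-Hochberg adjustment, threshold 0.05), and DESeq2 1.42.0 and limma 3.58.1 as alternatives. The fits were tested on simulated counts. Permutation tests drew 100000 permutations. Members, classes, gene lists and tests were chosen with earlier results of these data known. Named genes are the members, up to 8 of the most abundant genes per list above 10 CPM in a library, and the 3 probes most like each member. The labels' numbers mark shared litters. TCDD and control share no number, so the block entered as a random effect (limma-voom).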

Additional observations from a re-analysis of the deposited data

Results flagged for a closer look

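In 70 tests, each of 1 member in 1 group of 4 to 10 libraries, 22 found a library far from the rest. The limit is one that chance passes in about 1 of 20 groups of like samples. That share does not apply to groups that mix the classes, which differ in the members by choice, or to the 15 tests where every other library was at 0. The groups overlap, so the same library can be flagged more than once for a member. Groups of 3 and the newborn type as a whole were not tested. Among the 4 labelled TCDD male pups, replicate 6, the newborn-type library, stood above the others for Igf2bp1 (2.88 CPM against at most 0.174 CPM), Igf2bp2 (62 against at most 0.384 CPM), Hmga1 (3.79 against at most 0.832 CPM), Hmga2 (24.6 against at most 0.93 CPM) and Sox4 (34.5 against at most 3.55 CPM). Among the labelled TCDD female pups, replicate 6, the adult-type library, was lowest for Igf2bp2, at 0.649 CPM against 58.6 to 69.8 CPM. In the newborn type under control, male pup 4 had the highest Hmga1, 6.66 CPM against 2.95 to 4.17 CPM.

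The other flags rest on 1 to 4 counts in 1 library where the rest of its group was at 0. TCDD male pup 8 had 0.116 CPM of Lin28a, 0.233 CPM of Lin28b and 0.116 CPM of Igf2bp3, and TCDD male pup 10 had 0.192 CPM of Sox11. TCDD female pup 8 had 0.157 CPM of Lin28a and 0.0525 CPM of Lin28b, and TCDD dam 6 had 0.221 CPM of Sox11. Control female pup 2 had 0.224 CPM of Lin28a, control dam 4 had 0.115 CPM of Lin28b and control dam 2 had 0.175 CPM of Sox11.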

How the results depend on the processing

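The log2 differences of the 6 members with an estimate were below 0 in 42 of 42 alternative values, and 13 moved by over 1 SD. The alternatives were total-count or RLE scaling, leading probe or sum, stage-concordant or control-labelled libraries, and added constants. Members were chosen by this contrast, so their shared sign is no support for it. For genes with 1 probe the sum of probes repeats the main value. The log2 form with 0.5 CPM added was chosen after seeing the data. The number of members with ranges apart was 4 or 5 in every setting run. Of probes past the low-count filter, 11.5% (TMM), 12.4% (RLE) and 68% (total-count scaling) were lower in the adult type without overlap. That share was not computed for the stage-concordant or control-labelled libraries. Nothing is read from the number, since the members were chosen by this contrast. With litter number as a replicate block, 0 probes passed for the TCDD label in either class (block correlation 0.0129 newborn, 0.0706 adult). With no filter on low counts, 112 probes passed for the TCDD label in the adult type and 9 for the difference between classes. DESeq2 called 24 for the difference between classes and 476 in male pups. Leaving out 1 of the 2 control libraries of the adult type gave 0 to 2 calls (2 without control dam 5), the lone control being assumed to vary like the TCDD libraries, and the 6 TCDD libraries were not left out in turn. Leaving out 1 library in turn gave 0 in each case in dams and in female pups, and 0 to 6451 in male pups (6451 without TCDD male pup 6). Among pup-labelled newborn-type libraries 1 pair of members passed. The cause of these changes was not tested. Depth limits Lin28a, Lin28b and Sox11 in both classes, and 2 control libraries limit the adult-type test.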
